A study of Mus musculus with 6 samples.

Results

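The creatine kinase system and myoglobin were followed as 8 mRNAs, out of 18437 listed in any of 6 mouse tissue libraries. They were taken by gene symbol: the creatine kinases Ckm, Ckb, Ckmt1 and Ckmt2, the creatine synthesis enzymes Gatm and Gamt, the creatine transporter Slc6a8, and the oxygen carrier Mb. Each of the 8 had reads in all 6 libraries. The measurement was Ribo-seq, the sequencing of mRNA fragments that translating ribosomes protect from nuclease. Tissues of untreated WT mice of the strain C57BL/6J were taken at 4 weeks of age (heart, lung, kidney, brain, small intestine and colon, with 1 library for each), and the labels do not say whether a library came from 1 animal or from several. The authors deposited RPKM, in which read counts over a coding sequence (CDS) are divided by its length and by the library's total over all mRNAs, which is called the ribosome density here. Since RPKM is scaled by length, densities of different mRNAs can be set side by side.

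Between 4504853 and 10635031 reads per library were recovered from the RPKM values. Ranges after a value are 95% exact Poisson intervals, Wilson intervals for shares, or exact binomial intervals of the reads for ratios. They cover counting error only, because no molecular identifiers are described for the reads and no tissue had a second library. No test between tissues was possible. A single mRNA, Kri1, took between 0.4% (labelled lung) and 22.1% (labelled kidney) of the reads, which lowers the RPKM of every other mRNA in a library but not their ratios within it.

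Tissue markers went against 4 of the 6 labels, so every library is named by its label, as the library labelled X or as a value under the X label. All 6 cardiomyocyte markers and all 3 lung epithelium markers were highest under their own labels. The library labelled brain held the enterocyte markers, with a summed RPKM of 28639 over 5 markers against 27.7 to 1146 elsewhere. Kidney markers lay in the library labelled colon, where 5 proximal tubule markers summed to 4526 RPKM against 5.53 to 373 elsewhere, and 4 distal nephron markers to 17339 RPKM against 8.3 to 482. Of 4 colon epithelium markers, Muc2, Car1 and Slc26a3 were highest in the library labelled kidney and Krt20 under the brain label. Their sum was higher under the brain label, at 11006 RPKM with 10346 from Krt20, than under the kidney label, at 5158 RPKM. Neuron, astrocyte and oligodendrocyte markers summed to 3916, 1831 and 3089 RPKM under the small intestine label, against 2.48 to 117, 24.7 to 412 and 3.94 to 28.7 RPKM elsewhere. The astrocyte marker Aqp4 went the other way, with 403 RPKM under the kidney label and 163 under the small intestine label. The defining brain markers Gfap and Rbfox3 were at 0 reads in the library labelled brain. A direction between tissues below holds for the labels only.

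Creatine kinase moves a phosphate group between ATP and creatine, so that phosphocreatine can buffer ATP where it is used and carry energy from mitochondria to the sites of use. Ckm and Ckb are the cytosolic muscle and brain-type subunits, and Ckmt1 and Ckmt2 are the ubiquitous and sarcomeric forms of the space between the mitochondrial membranes. Gatm joins arginine and glycine to guanidinoacetate, Gamt methylates it to creatine, and cells that make little creatine take it up from blood through Slc6a8. Myoglobin, encoded by Mb, stores oxygen and eases its diffusion in heart and skeletal muscle.

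The 4 kinase mRNAs come from separate chromosomes of GRCm39 and have similar coding sequences, which bears on how well short reads can be told apart. Ckm lies on the plus strand at chr7:19138701-19157965, Ckb on the minus strand at chr12:111635789-111639008, Ckmt1 on the plus strand at chr2:121188195-121195706 and Ckmt2 on the minus strand at chr13:92001503-92025608. Their CDSs were 1143, 1143, 1254 and 1257 nt long without the stop codon. The cytosolic pair Ckm and Ckb shared 76.5% of aligned CDS bases and the mitochondrial pair Ckmt1 and Ckmt2 72.7%, while cytosolic and mitochondrial CDSs shared 67.1% to 68.1%. The 60 bases in which the 4 CDSs were most alike are shown because they hold the fewest bases that separate the isoforms; capitals mark bases that differ from Ckm, and 44 positions were the same in all 4.
Ckm: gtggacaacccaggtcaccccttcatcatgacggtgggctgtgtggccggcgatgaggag
Ckb: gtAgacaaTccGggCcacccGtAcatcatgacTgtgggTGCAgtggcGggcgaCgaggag
Ckmt1: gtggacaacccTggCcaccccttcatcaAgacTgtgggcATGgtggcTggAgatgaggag
Ckmt2: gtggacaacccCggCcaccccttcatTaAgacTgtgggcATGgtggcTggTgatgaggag
These are coding bases 181 to 240 of Ckm, split between exon 2 (chr7:19148243-19148255) and exon 3 (chr7:19148822-19148868), and of Ckb, split between exon 2 (chr12:111638200-111638212) and exon 3 (chr12:111637967-111638013). In Ckmt1 they are coding bases 283 to 342 in exon 2 (chr2:121190190-121190249), and in Ckmt2 the same coding bases in exon 3 (chr13:92011267-92011326). Ckb differed from Ckm at 13 of the 60 bases, Ckmt1 at 9 and Ckmt2 at 10.

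The longest stretch that any pair of kinases had in common was 39 bases of the mitochondrial pair, coding bases 892 to 930, in exon 7 of Ckmt1 (chr2:121193168-121193206, plus strand) and exon 8 of Ckmt2 (chr13:92006414-92006452, minus strand).
Ckmt1 and Ckmt2: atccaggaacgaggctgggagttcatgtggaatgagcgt
Reads inside it cannot be assigned to either mRNA. For windows of 29 nt, a usual footprint length, 11 of 1226 in Ckmt1 and 11 of 1229 in Ckmt2 were identical to the other. Allowing 2 mismatches, 6.28% of the windows of Ckmt1, 6.43% of Ckmt2, 4.39% of Ckm and 3.95% of Ckb matched another listed mRNA, and none of Gatm, Gamt or Mb did. For Slc6a8, 1.74% matched other transporters of its family. The authors left multi-mapped reads out. In addition, 90 windows of Ckmt1 matched the opposite strand of Strc, whose transcript overlaps its end. Whether antisense reads were removed is not given in the sources used here.

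The starts of 3 CDSs are shown, for the mitochondrial pair and for the densest mRNA under the heart label, with the start codon in capitals. The first bases of Ckmt1 (chr2:121189331-121189390, plus strand) and Ckmt2 (chr13:92013393-92013452, minus strand) encode the start of the presequences that take both enzymes into mitochondria, and those of Mb (chr15:76906724-76906783, minus strand) the start of the globin fold.
Ckmt1: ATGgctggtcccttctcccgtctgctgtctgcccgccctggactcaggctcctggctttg
Ckmt2: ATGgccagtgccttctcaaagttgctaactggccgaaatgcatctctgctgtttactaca
Mb: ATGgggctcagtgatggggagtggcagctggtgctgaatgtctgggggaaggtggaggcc

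Ckm, the muscle cytosolic kinase, had 2225 RPKM (2195 to 2255) in the library labelled heart, where it ranked 50 by density. Elsewhere it had 16.6 RPKM in the library labelled lung, 13.2 under the colon label, 7.38 under the kidney label, 6.25 under the brain label and 2.06, from 18 reads, under the small intestine label. The library labelled heart thus stood alone, 134-fold (114 to 158) above the next, and 208-fold with median-of-ratios scaling in place of all reads. Lung and colon labels, and kidney and brain labels, could not be ordered beyond counting error. In bulk tissue, fewer cells of a type and less RNA per cell cannot be told apart, and a ribosome density does not separate the amount of mRNA from the ribosomes on each mRNA.

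Ckb, the brain-type cytosolic kinase, spread more evenly. It had 390.0 RPKM (377 to 403) in the library labelled small intestine, rank 267, and 70.8 under the kidney label, 48.6 under the lung label, 37.9 under the colon label, 32.6 under the heart label and 27.7 under the brain label. The highest was 5.51-fold (5.05 to 6.01) above the next and 14.1-fold (12.6 to 15.8) above the lowest, compared with 1079.9-fold for Ckm. Colon and heart labels lay within counting error of each other. The library that led Ckb was the one with all the neuron and oligodendrocyte markers and 3 of 4 astrocyte markers at their highest. The part of those cells in this value was not tested.

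The ubiquitous mitochondrial kinase Ckmt1 was high in 3 libraries. Its density was 986 RPKM (969 to 1003) in the library labelled brain, rank 110, 651 (635 to 667) under the kidney label, rank 127, and 324 (313 to 336) under the small intestine label, rank 332. The other libraries had 66.7 RPKM (labelled colon), 25.5 (labelled lung) and 16.1 (labelled heart). The 1.51-fold lead (1.47 to 1.56) of the brain label over the kidney label exceeded counting error, and was 1.2-fold when reads on Kri1 were left out of the scaling. The 3 high libraries were those with the enterocyte, colon epithelium and neural markers, whose part was not tested. Smooth muscle markers also differed among them, with a summed RPKM of 3061, 4022 and 36.0 over 6 markers in the libraries labelled brain, kidney and small intestine.

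Ckmt2, the sarcomeric mitochondrial kinase, ran the other way. It had 1939 RPKM (1912 to 1966) in the library labelled heart, rank 62, then 29 under the colon label and 24.3 under the lung label, which could not be ordered, and 4.2, 2.08 and 0.299 in those labelled kidney, small intestine and brain. The last value came from 4 reads (0.0815 to 0.766 RPKM). The lead of the heart label was 66.9-fold (57.4 to 78.5). Ckmt1 over Ckmt2 therefore ran from 0.00829 (0.00707 to 0.00967) in the library labelled heart to 3294 (1286 to 12093) under the brain label, with 155 and 156 in those labelled kidney and small intestine. In the library labelled lung the ratio was 1.05 (0.874 to 1.26), so neither mitochondrial kinase led beyond counting error.

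**Figure D1:**
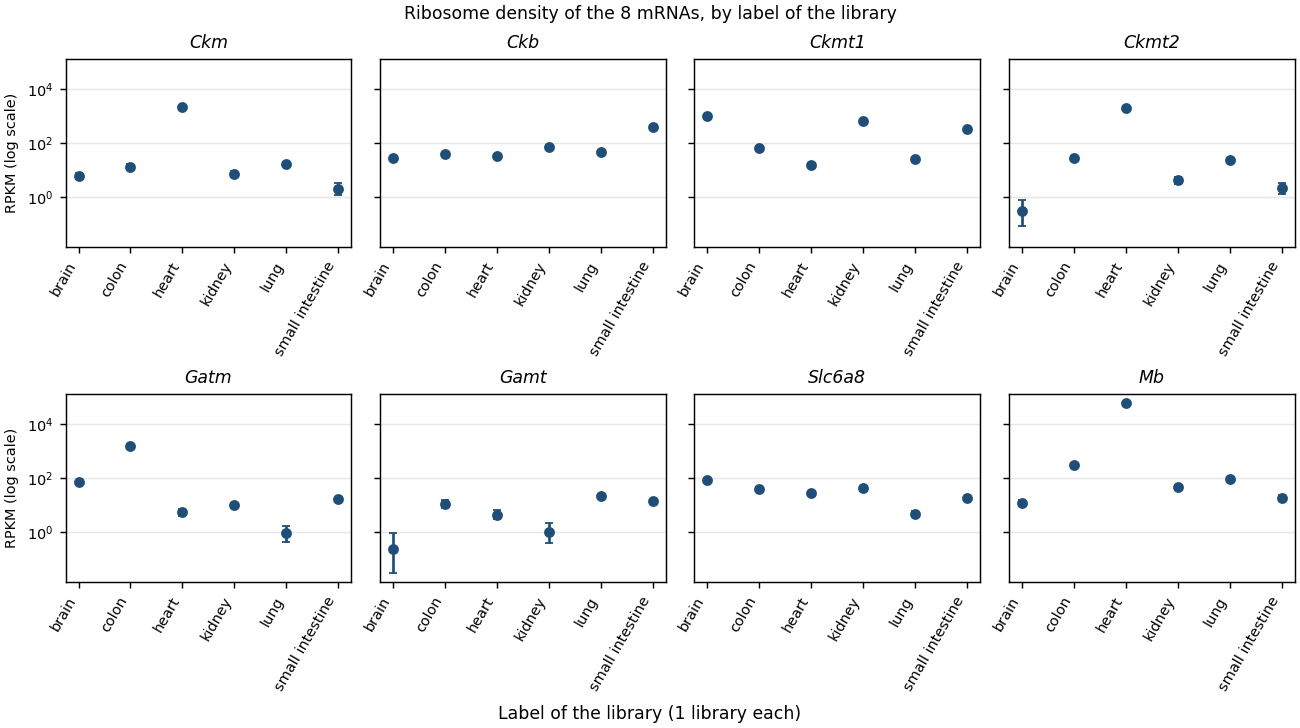
Ribosome density of the 8 mRNAs (RPKM, log scale) in each library, named by its label, with 1 point per library and bars for the 95% exact Poisson interval. Ckm, Ckmt2 and Mb each have a single high point under the heart label, while Ckmt1 has 3 points above 300 RPKM and Gatm a single high point of 1598 RPKM under the colon label.

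The leading isoform differed between libraries. As a share of the summed RPKM of the 4 kinases, Ckmt1 led with 96.6% in the library labelled brain, 88.8% under the kidney label and 45.5% under the colon label. Ckm led with 52.8% in the library labelled heart. Ckb led with 54.3% in the library labelled small intestine and 42.2% under the lung label. The summed density itself was 4212 RPKM in the library labelled heart, 1020 under the brain label, 733 under the kidney label, 718 under the small intestine label, 147 under the colon label and 115 under the lung label.

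Under the heart and small intestine labels a cytosolic and a mitochondrial kinase were nearly level. The library labelled heart paired Ckm with Ckmt2 (46.0%) at a ratio of 1.15 (1.13 to 1.17), and left 0.774% to Ckb and 0.382% to Ckmt1. That labelled small intestine paired Ckb with Ckmt1 (45.1%), and left 0.287% to Ckm and 0.29% to Ckmt2. The pairs had no member in common, yet the mitochondrial kinases together took 46.4% and 45.4% of the kinase density in these libraries. They took 96.7% in the library labelled brain, 89.3% under the kidney label, 65.2% under the colon label and 43.3% under the lung label.

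In the libraries with the lowest summed density no kinase took less than 9.0% of it, but none exceeded 66.7 RPKM. Under the colon label Ckb took 25.8%, Ckmt2 19.7% and Ckm 9.0%, and under the lung label Ckmt1 took 22.2%, Ckmt2 21.1% and Ckm 14.5%. Cardiomyocyte markers summed to 406 and 439.7 RPKM under the colon and lung labels. Under the brain, kidney and small intestine labels they summed to 13.7 to 67.9 RPKM. Their part in Ckm and Ckmt2 was not tested. Within the cytosolic pair, Ckm over Ckb was 68.2 (60.9 to 76.6) in the library labelled heart and between 0.00528 (labelled small intestine) and 0.349 (labelled colon) in the others.

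**Figure D2:**
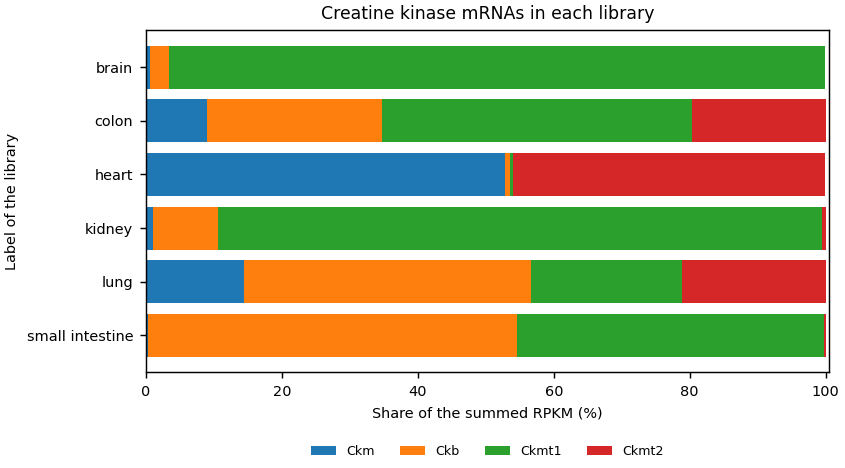
Share of the summed RPKM of the 4 creatine kinase mRNAs taken by each (percent), with 1 bar per library, named by its label. Ckmt1 takes 96.6% under the brain label and 88.8% under the kidney label, while the heart and small intestine labels each divide between a cytosolic and a mitochondrial kinase.

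Creatine synthesis was read from Gatm and Gamt. Gatm, on chr2:122424948-122441799 (minus strand), had 1598 RPKM (1566 to 1631) in the library labelled colon, rank 72, and 73.9 (69.4 to 78.6) under the brain label. The remaining values were 16.4 RPKM (labelled small intestine), 10.3 (labelled kidney), 5.39 (labelled heart) and 0.917 from 9 reads (labelled lung). Gatm was thus 21.6-fold (20.3 to 23.1) higher under the colon label than under any other. Gatm is known as an enzyme of kidney and pancreas, and the library labelled colon was the one that held the kidney markers. Its 4.62% (4.33 to 4.94) of the colon-label density in the library labelled brain can be set beside 9 kidney markers, whose percentages there had a median of 2.49% and ran from 0 for Aqp2 to 174% for Cubn, an endocytic receptor also made in the intestine. Elsewhere Gatm was above the markers' median under the small intestine (1.03% against 0.0583%), kidney (0.644% against 0.115%) and heart labels (0.337% against 0.0655%). By point values it was within the markers' range there, below their highest values of 1.57%, 3.12% and 0.54%. Under the small intestine and kidney labels the highest was Cubn, and Slc22a6 (1.48%) and Slc12a3 (0.706%) were also above Gatm in turn. Under the heart label the highest was Aqp2, from 1 read (0.0135 to 3.08%). The next marker there, Slc34a1, was at 0.164% (0.114 to 0.229%), below Gatm (0.255 to 0.439%). Under the lung label, at 0.0574% (0.0262 to 0.109%), Gatm was below the lowest marker, Cubn, at 0.131% (0.0763 to 0.21%), but these intervals overlapped. Of 4 pancreatic acinar markers, Cpa1, Cela1 and Pnlip were at 0 in the library labelled colon. The part of these cells in Gatm was not tested.

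Gamt, which completes creatine and lies on chr10:80089960-80096860 (minus strand), was low everywhere. Its density was 21.7 RPKM (18.1 to 25.9) in the library labelled lung, 14.2 (11.3 to 17.6) under the small intestine label, 11.2 under the colon label and 4.53 under the heart label. Those labelled kidney and brain had 1.05 and 0.249 RPKM from 6 and 2 reads, too few to be ordered. The lead of the lung label, 1.53-fold (1.15 to 2.05), turned under median-of-ratios scaling, in which the small intestine label was higher. Small intestine and colon labels lay within counting error.

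The ratio of the synthesis enzymes differed widely between libraries. Gatm over Gamt was 143 (104 to 203) in the library labelled colon and 297 (82.0 to 2456) under the brain label, but 0.0422 (0.0189 to 0.0827) under the lung label. It was 1.16 (0.879 to 1.53) under the small intestine label and 1.19 (0.744 to 1.95) under the heart label, where neither was higher beyond counting error. Liver, the tissue best known for Gamt, was not analysed here.

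Uptake was read from Slc6a8, the sodium- and chloride-dependent creatine transporter on the X chromosome (chrX:72716728-72726108, plus strand). It had 87.5 RPKM (83.5 to 91.7) in the library labelled brain, then 41.8 under the kidney label and 41.4 under the colon label, which could not be ordered. Lower values were 28.9 RPKM under the heart label, 18.7 under the small intestine label and 4.65 (3.62 to 5.88) under the lung label. The highest was 2.09-fold (1.91 to 2.3) above the next, and 1.66-fold without the reads on Kri1 in the scaling, which ended its count as led by 1 library below. From highest to lowest, Slc6a8 spanned 18.8-fold (14.8 to 24.3), against 1742-fold for Gatm.

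Set against Gatm alone, the ratio of Slc6a8 was 5.36 (4.05 to 7.21) in the library labelled heart and 4.07 (3.28 to 5.08) under the kidney label. Under the lung label it was 5.07 (2.52 to 11.5), with 9 reads on Gatm. It was close to 1 in those labelled brain, at 1.18 (1.1 to 1.28), and small intestine, at 1.14 (0.937 to 1.4). By these ratios the colon label was the single library with more Gatm than Slc6a8, at a ratio of 0.0259 (0.0232 to 0.0288). Slc16a12, a transporter known for carrying creatine out of cells, was highest in the same library, with 8.37 RPKM, and had 4.39 under the brain label, a 1.91-fold difference (1.31 to 2.77). It had 0.0838 to 1.09 RPKM in the other 4. Set against Gamt, Slc6a8 was lower under the lung label (4.65 against 21.7 RPKM) and higher under every other label.

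Mb, on chr15:76899686-76940711 (minus strand), was the mRNA with the highest density in the library labelled heart, with 62856 RPKM (62604 to 63109) from 237632 reads, or 2.9% (2.89 to 2.92) of all reads there. It had 315 RPKM (292 to 340.3) in the library labelled colon, 93.5 under the lung label, 47.1 under the kidney label, 19.3 under the small intestine label and 12.2 (9.32 to 15.7) under the brain label. All neighbours in this order differed beyond counting error, and the lead of the heart label was 199-fold (185 to 216). Mb stood 28.3-fold (27.9 to 28.7) above Ckm in the same library.

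The 3 members that led under the heart label were also read at low density in the other libraries. As a percentage of the level under the heart label, Ckm was at 0.748% in the library labelled lung, 0.594% under the colon label, 0.332% under the kidney label, 0.281% under the brain label and 0.0926% under the small intestine label. The 6 cardiomyocyte markers, Myh6, Actc1, Tnni3, Tnnt2, Mybpc3 and Pln, ran from 0.225% to 1.17%, 0.481% to 4.25%, 0.1% to 0.299%, 0.00673% to 0.123% and 0.0639% to 0.142% in the same order of libraries. Of these, Pln rested on 2 reads or fewer in every library but those labelled heart and colon. By point values Ckm was inside the range of the markers under the lung, colon and small intestine labels and above it under the kidney and brain labels. Under the kidney label its interval (0.256 to 0.424%) overlapped those of Actc1 (0.232 to 0.378%), Mybpc3 and Pln, and under the brain label (0.221 to 0.352%) that of Pln. Skeletal muscle also makes Ckm. Its 8 markers summed to 48.9 RPKM under the lung label, mostly from Tnni2 (20.8) and Mylpf (21.4), with Acta1 at 1 read. By point value Ckm was highest there after the heart label, and 7 of the 8 markers had reads. The same number had reads under the small intestine label, where Ckm was lowest. It was also 7 under the heart label, where the sum was highest. Under the brain label the sum was 26.2 RPKM, nearly all Acta1, and 5 markers were at 0. The sums were 1.41 to 7.97 RPKM under the colon, kidney and small intestine labels, and their part in Ckm was not tested.

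Ckmt2 and Mb took other places among these markers. Ckmt2 was at 1.49% under the colon label and 1.25% (1.1 to 1.42%) under the lung label, where the highest marker, Myh6, was at 1.17% (1.13 to 1.2%), and at 0.216%, 0.107% and 0.0154% under the kidney, small intestine and brain labels, within the markers' range by point values. Mb was at 0.501% under the colon label and 0.0194% under the brain label, within the range, but at 0.149%, 0.0749% and 0.0306% under the lung, kidney and small intestine labels, where all 6 markers had higher point values. The intervals of Pln reached below Mb in these 3 libraries, and under the kidney label the interval of Tnnt2 (0.0844 to 0.118%) also overlapped that of Mb (0.0639 to 0.0873%). In summed RPKM the cardiomyocyte markers had 55681 under the heart label and 13.7 to 439.7 in the others, with none at 0. Their part in the low values was not tested.

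**Figure D3:**
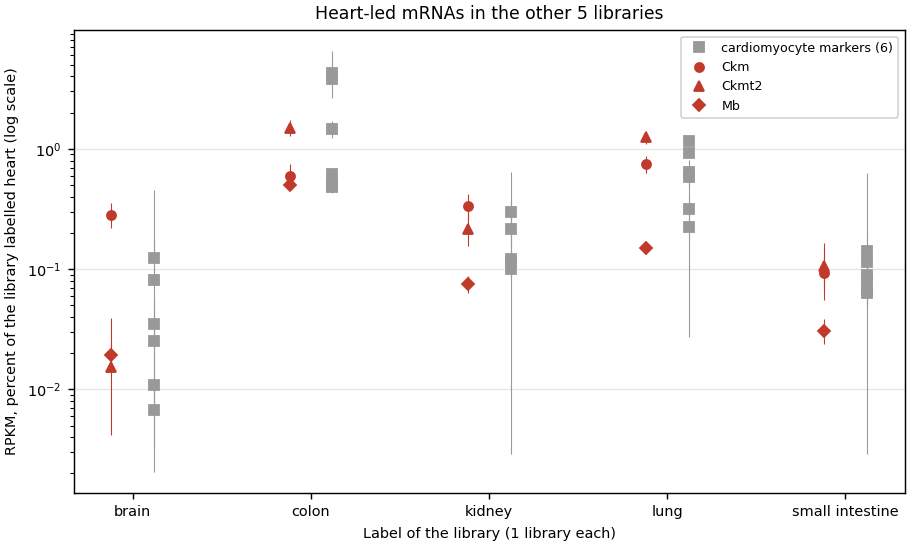
RPKM of Ckm, Ckmt2, Mb (red) and 6 cardiomyocyte markers (grey squares) in the other 5 libraries, as a percentage of the library labelled heart (log scale), with lines for the 95% counting interval. Under the colon label the members lie between 0.501% and 1.49%, and Ckm under the brain label, at 0.281%, has a higher point value than every marker, of which Pln rests on 1 read there.

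To compare all members by 1 measure, an mRNA was counted as led by a library where log2(RPKM + 1) there was at least 1 (2-fold) above every other library, among mRNAs that reached 1 RPKM in any library. All 8 members passed this filter, and 6 of 8 were led by a library, against 41.1% of the 15238 mRNAs tested. The heart label led Ckm, Ckmt2 and Mb, against 5.06% of all mRNAs. The brain label led Slc6a8 (4.88% of all mRNAs), the colon label Gatm (5.22%) and the small intestine label Ckb (13.5%). Ckmt1 and Gamt were not led by any library. The median gap between the highest and the next library was 3.43 on this log2 scale over the members and 0.77 over all mRNAs tested, and the members' gaps ran from 0.58 for Gamt to 7.64 for Mb. These are counts of single libraries, with no test.

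The supply and other uses of arginine, glycine and methyl groups, from which creatine is made, were read from 13 mRNAs, which all passed the filter. Of these, 8 were led by a library (41.1% of all mRNAs), with a median log2 gap of 1.46 against 0.77 over all mRNAs. The colon label, under which Gatm was highest, led 5 of them (5.22% of all mRNAs): the arginine-making enzymes Ass1 and Asl, the glycine N-methyltransferase Gnmt, and the serine hydroxymethyltransferases Shmt1 and Shmt2. Ass1 had 4599.9 RPKM there and 149 RPKM in the library labelled brain, a 30.8-fold difference (29.5 to 32.3), and Asl had 134 RPKM there and 27.7 under the lung label. Gnmt had 30.6 RPKM there and 10.5 under the kidney label. The 4 hepatocyte markers summed to 1102 RPKM under the colon label and 903 under the kidney label. Their sum was 1862 RPKM under the small intestine label, with 1819 from Ttr, and 13.3 to 150.4 RPKM elsewhere. The part of hepatocyte mRNA in these values was not tested. The brain label (4.88% of all mRNAs) led Arg2 and Oat, which use arginine or its product ornithine, and Ahcy, which clears the by-product of methylation. Oat had 2832 RPKM under the brain label and 526 under the lung label. Mat2a, which makes the methyl donor outside liver, ran from 62.6 to 158 RPKM.

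Adenylate kinases, which pass phosphate between adenine nucleotides and act beside creatine kinase, were read next. Of the 8 analysed, 7 passed the filter (Ak6 was at 0 in all libraries), and 6 of the 7 were led by a library (41.1% of all mRNAs), with a median log2 gap of 2.43. The lung label led Ak7, Ak8 and Ak9 (9.68% of all mRNAs were led by it), the heart label Ak1 (5.06%), the colon label Ak4 (5.22%) and the small intestine label Ak5 (13.5%). Cytosolic Ak1 had 5329.8 RPKM under the heart label and 566 under the small intestine label, a 9.41-fold difference (9.05 to 9.79), and 12.1 to 156 RPKM in the others. Ak4, of the mitochondrial matrix, had 357 RPKM under the colon label and 21.1 under the small intestine label, and no reads under the lung label. Ak3, also of the matrix, was led by no library and ran from 23.2 RPKM under the small intestine label to 167 under the colon label.

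Mitochondrial exchange of adenine nucleotides was read from the translocases and the channels of the outer membrane. The 5 mRNAs analysed all passed the filter, and 2 were led by a library, a share near the 41.1% of all mRNAs, with a median log2 gap of 0.93 against 0.77. The heart label (5.06% of all mRNAs) led both of them. Slc25a4, the heart and muscle translocase, had 2646 RPKM under the heart label and 167 under the small intestine label, and Vdac1 had 507 RPKM under the heart label and 183 under the colon label. Slc25a5 was highest under the brain label, with 835 RPKM against 565 under the colon label. Slc25a4 took 90.7% of the translocase density under the heart label, 57.3% under the small intestine label and 4.92% under the brain label. Among the outer membrane channels Vdac1 took 62.9% under the heart label, 65.2% under the small intestine label and 21.0% under the brain label, where Vdac3 took 39.9%.

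**Figure D4:**
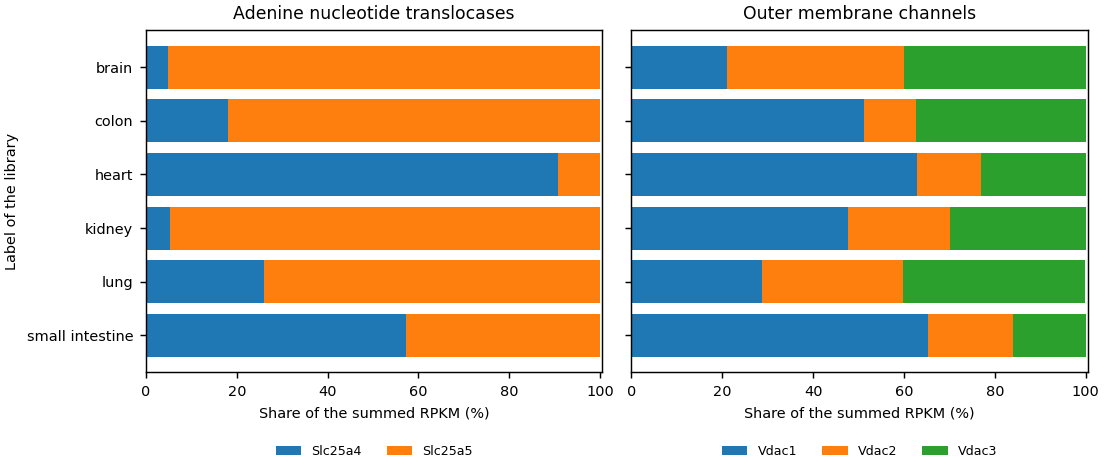
Share of the summed RPKM within the adenine nucleotide translocases and within the outer membrane channels (percent), with 1 bar per library, named by its label. Slc25a4 takes 90.7% and Vdac1 62.9% under the heart label, against 4.92% and 21.0% under the brain label.

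Among the 6 mRNAs analysed of ATP users and M-band proteins near creatine kinase, 4 passed the filter and 3 were led by a library (41.1% of all mRNAs), with a median log2 gap of 4.14. The heart label (5.06% of all mRNAs) led all 3. The calcium pump Atp2a2 had 11031 RPKM under the heart label against 943 under the small intestine label, an 11.7-fold difference (11.5 to 11.9). The M-band proteins Myom1 and Myom2, which bind the muscle kinase, had 115 and 158 RPKM under the heart label and at most 3.38 and 1.47 elsewhere. Atp2a3, a calcium pump of non-muscle cells, was led by no library, with 173 RPKM under the kidney label and 95.9 under the lung label.

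The other globins were low under the heart label, at 13.6 RPKM or less. All 6 passed the filter and 2 were led by a library, below the 41.1% of all mRNAs, with a median log2 gap of 0.78 against 0.77. Both, Hbb-bs and Hbb-bt of the blood haemoglobin, were led by the lung label (9.68% of all mRNAs). Hbb-bs had 309 RPKM there. Its near-identical copies make each single value uncertain. Cytoglobin (Cygb) had 9.0 RPKM under the heart label and 8.03 under the small intestine label, within counting error, and neuroglobin (Ngb) had at most 4.25 RPKM.

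For the 7 members that reached 50 RPKM, the mRNAs with the most alike profile over the 6 libraries were sought among 4679 mRNAs that also reached 50 RPKM. Likeness was the overlap of profiles, the sum over libraries of the smaller of the shares that each mRNA has there of its own summed RPKM. Ckm was most like Tnnc1, Myh6 and Txlnb (99.5% each), Ckmt2 most like Mybpc3 (99.3%), Corin and Myom2 (99.1% each), and Mb most like Myl2 (99.8%), Lrrc2 and Adprhl1 (99.7% each). Of these, Tnnc1, Myh6, Mybpc3, Myom2 and Myl2 encode proteins of the sarcomere. Gatm was most like Hsd3b2 (98.8%), Miox (98.6%) and G6pc1 (98.5%), of which Miox breaks down inositol and G6pc1 releases glucose in kidney.

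Profiles of the other members had less close partners. Ckb was most like Nptn (96.3%), Gaa (92.6%) and Sdc3 (92.5%), Slc6a8 most like Scamp2 (93.4%), Rabl3 (92.5%) and Trappc6a (92.1%), and Ckmt1 most like Mgat4a (88.5%), Me2 (88.4%) and Fos (87.7%). Among the members themselves, Ckm, Ckmt2 and Mb overlapped by 97.8% to 98.8%. Ckmt1 overlapped Slc6a8 by 71.6% and Ckmt2 by 3.77%, and Gatm overlapped Gamt by 23.5%. With 6 libraries, and profiles set mostly by the highest of them, these percentages describe the libraries only.

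The coding sequences differed in the last base of their codons, which the rule had not used. In Ckm 80.9% and in Ckb 77.9% of codons with a synonymous choice ended in G or C, at percentiles 97.9 and 96.4 of all CDSs, whose median was 58.9%. The mitochondrial kinases were near that median, with 55.3% for Ckmt1 and 56.9% for Ckmt2, although Ckm and Ckmt2 had similar densities under the heart label. Gamt, Mb and Slc6a8 had 69.2%, 69.1% and 68.5%, and Gatm the lowest of the members, 50.5%, at percentile 27.5. Promoter windows from 250 bases before to 50 after each start were available for 7 members from RefSeq (GRCm38.p6), with no entry for Slc6a8. These members had 10 windows, some of the same gene and overlapping. On both strands, CAGCTG was found in 5 of the 10 windows (Ckm, Ckmt1, Ckmt2 and 2 of Mb) and in 16.3% of 32851 promoters. The 2 Mb windows overlapped and held the same site, 133 and 193 bases before their starts, so this site was counted 2 times. TATAAA was found in 2 windows (Ckb and Ckmt1) and in 13.6% of promoters, and AGATAA in 0 and in 11.2%.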

How the data were processed

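Ribo-seq libraries of 6 mouse tissues, 1 each, were analysed; the study's macrophage samples were not used here. For each mRNA an RPKM value was deposited by the authors. Their methods, written for the macrophage libraries, describe Cutadapt trimming, removal of reads under 15 nt, STAR alignment to the longest-CDS mRNA of each gene (GRCm39, Ensembl release 107) and exclusion of multi-mapped reads and of reads with over 2 mismatches. RPKM times the CDS length in the row names was divided by its smallest value above 0 in a library, the value of 1 read. This gave whole reads, within 1e-06 of a read, for 100% of values above 0 and supplied the exact Poisson and Wilson intervals (95%). Libraries were grouped by label. The members, gene lists, markers and rules were chosen with earlier results of these data known. Some genes of the lists are not reported here. Named mRNAs were the members, the other listed genes, Kri1 and the 3 closest profiles per member. For folds between neighbouring libraries in the order of density, an mRNA without reads in the lower one was put at 3 reads. Percentages of a library's level kept it at 0. CDSs came from GENCODE release M39, a later annotation of the build, which matched 18154 of 18437 mRNAs; 29-nt windows were aligned with bwa 0.7.19. The alternatives covered scaling, depth, pseudocount, filter and fold. Read recovery and the count of led mRNAs were tested on simulated data. Python 3.11.15, numpy 2.4.6, scipy 1.17.1, pandas 2.3.3, Biopython 1.88 and matplotlib 3.10.9 were used.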

Additional observations from a re-analysis of the deposited data

How the results depend on the processing

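With 1 library per tissue nothing could be set against replicates, and depth limited Gamt and the low values of Ckmt2 most. The leading kinase was the same in every library under both alternatives tried. Whole reads in place of RPKM, which drops the scaling by length, gave shares of 96.9% (labelled brain), 50.5% (heart), 89.6% (kidney) and 52.0% (small intestine). Scaling by median-of-ratios gave leads over the next library of 208-fold for Ckm, 84.5-fold for Ckmt2, 252-fold for Mb, 1.19-fold for Ckmt1 and 1.64-fold for Slc6a8, and put Gamt in the library labelled lung at 0.942 of that labelled small intestine. Leaving out the reads on Kri1 gave 4.99-fold for Ckb, 1.2-fold for Ckmt1 and 1.66-fold for Slc6a8, since Kri1 took most reads in the library labelled kidney, which was next for all 3. The cause of the other differences was not tested. Among 57 values under alternatives, 44 moved by less than counting error or stayed within 1.5 times the main count. Slc6a8 was no longer led by a library with a pseudocount of 5, a fold of 4, median-of-ratios or without Kri1, which left 5 members. Leaving out each library in turn, an alternative chosen after seeing the data, gave 4 to 7 members, with 4 when the library labelled heart was left out, since Ckm and Ckmt2 were then led by none. No paired analysis was possible because each tissue had 1 library.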
